A study of Ciona robusta with 12 samples.

Results

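Brachyury, gene model KH.S1404.1 of the KH2012 set, is 1 of the 15284 gene models in the count tables of whole Ciona robusta embryos, and it was followed here through all 12 libraries. It was chosen by its identifier and not by a rule on its values, though with earlier results of these data known. Ciona robusta is a tunicate, a close invertebrate relative of the vertebrates. Fertilized, dechorionated eggs were raised at 21 degrees Celsius in artificial seawater, and from the 32-cell stage the embryos were held either in U0126 or in DMSO alone, the carrier, at a 1:1000 dilution. Embryos were taken at the 64-cell or the 112-cell stage, which gives 4 groups (DMSO and U0126 at each stage) of 3 replicates each, called biological by the submitters. Each library came from the pooled RNA of 300 embryos. The dose of U0126 is labelled 4 mM, and whether that unit is right could not be checked. The labels name no genotype, strain or clutch, and every group was dechorionated and exposed to DMSO or to U0126 with its carrier from the same stage.

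Brachyury encodes a T-box transcription factor. In ascidians its expression is confined to the notochord lineage, where it drives the differentiation programme of that tissue, the rod of cells that stiffens the tadpole tail. The primary notochord precursors of the anterior vegetal lineage are induced by FGF signals from neighbouring cells. FGF receptors act through Ras, Raf, MEK and ERK, and activated ERK works on Ets-family transcription factors at the Brachyury gene, together with the regulators Foxa.a and Zic-r.b. The secondary precursors, from the posterior lineage, turn Brachyury on later. U0126 inhibits MEK and so keeps ERK inactive. The comparisons therefore ask how much Brachyury transcript had appeared by each stage, and how much of it remained when MEK was inhibited.

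Libraries held 10623872 to 15956670 reads over genes, so 1 read of Brachyury stands for close to a normalized count of 1. The normalized count is the reads of a gene divided by the size factor of its library. Libraries with the same replicate number resembled each other across groups. DMSO replicate 3 at 112 cells stood apart, in that 210 of 11650 genes were 4-fold or more below each of the 11 others there, against 0 to 4 genes for any other library. The main limma tests of Brachyury that use it are given with and without it.

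Brachyury rose about 10-fold between the stages in DMSO embryos and was near the limit of detection in U0126 embryos at both. In DMSO embryos at 64 cells the 3 libraries held 57, 136 and 151 Brachyury reads in replicates 1, 2 and 3. In U0126 embryos of that stage they held 7, 1 and 16 reads. At 112 cells the DMSO libraries held 1062, 974 and 1123 reads and the U0126 libraries 5, 6 and 13. Every DMSO library was above every U0126 library of either stage. The 6 U0126 libraries together held 48 reads, fewer than the lowest single DMSO library.

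**Figure D1:**
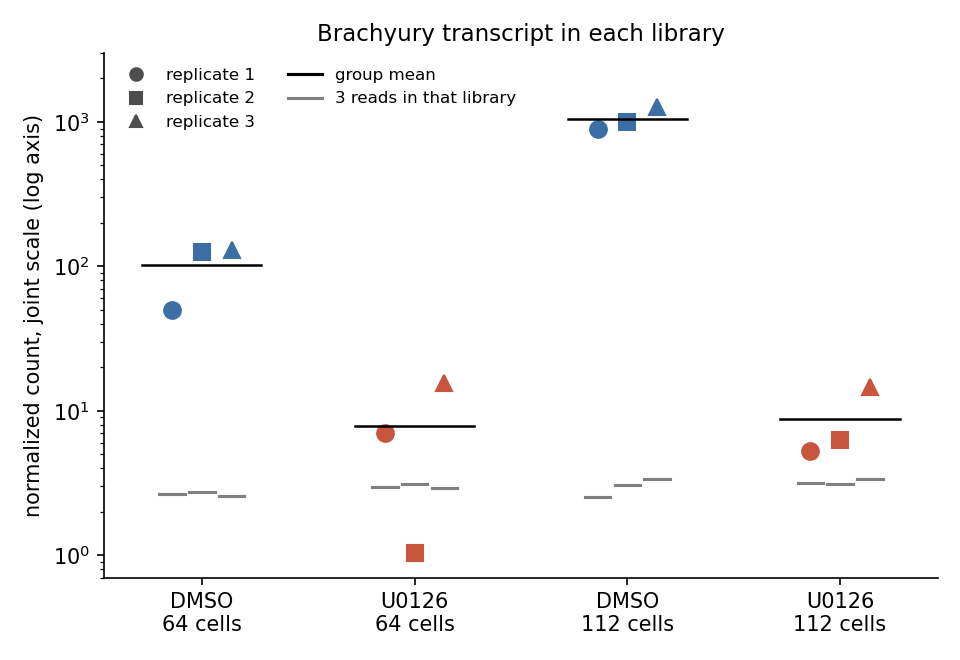
Brachyury level in each of the 12 libraries as normalized counts on a scale common to both stages (log axis); symbols are replicate numbers, black lines group means, and grey ticks the level that 3 reads would give in that library. DMSO libraries lie at 50.2 to 130 at 64 cells and 899 to 1267 at 112 cells, U0126 libraries at 1.04 to 15.7 and 5.27 to 14.7.

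At the 64-cell stage Brachyury transcript was already present in DMSO embryos, though unevenly among replicates. The normalized counts as deposited were 53.3, 133 and 137 in replicates 1, 2 and 3, a mean of 108 ± 47.1 (SD, n = 3). Replicate 1 was 2.57 times below the highest replicate, a gap beyond the counting error of independent reads. An exact Poisson interval (95%) ran from 43.2 to 73.9 reads for its 57 reads, and from 114 to 161 for the 136 of replicate 2. These intervals cover counting error only, and they are too narrow where amplified reads are not independent molecules. No stage before 64 cells was analysed, so the onset itself was not observed.

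With U0126 the level at 64 cells was 7.34, 1.09 and 16.5 normalized counts in replicates 1, 2 and 3, a mean of 8.32 ± 7.76 (SD, n = 3). Replicate 2 rests on a single read, under the 3 reads that a count of 0 still allows, and its interval reached 5.57 reads. The U0126 mean was 7.72% of the DMSO mean. Against the DMSO library of the same number, 13.8% remained in replicate 1, 0.819% in replicate 2 and 12.1% in replicate 3, with exact counting intervals of 5.30% to 30.3%, 0.0206% to 4.64% and 6.72% to 20.2%. The groups did not overlap, and the U0126 library was the lower one in 3 of 3 same-number pairs. Since whole embryos were sequenced, fewer cells with the transcript and less transcript per cell cannot be told apart.

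Whether this difference passed a test at 64 cells turned on how the spread was modelled. The log2 fold change was -3.89 (SE 0.78, 95% interval -5.70 to -2.09, on the scale of log2(normalized count + 1), which understates changes of low genes), the third most negative of 10792 genes tested. It missed the threshold, a Benjamini-Hochberg adjusted p under 0.05, in limma (unadjusted p = 0.00113, adjusted p = 0.805), where 0.0185% of genes were called. With the replicate number as a block, limma gave the same estimate an adjusted p of 1.34e-44, in a fit that called 1.35% of genes, and edgeR with the block gave 7.47e-44. In that blocked limma fit all genes of a given level shared 1 spread, and the SD assigned to Brachyury was 0.328 on the log2 scale, whereas its own residual SD was 1.29, which alone would give an SE of 1.06. When all 12 libraries were fitted together with the block, a fit added after the data were seen, the SE was 0.54 and the limma adjusted p = 0.0576. DESeq2 without a block called Brachyury lower (log2 fold change -3.69, DESeq2 adjusted p = 0.000432), and edgeR without a block did not (edgeR adjusted p = 0.821). An exact two-sided permutation test over the 6 libraries gave p = 0.1, the smallest that 3 against 3 libraries allow.

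By the 112-cell stage the DMSO level had climbed to 858, 944 and 1231 normalized counts in replicates 1, 2 and 3, a mean of 1011 ± 195 (SD, n = 3). Replicate 3, the library that stood apart, was the highest, and the range over replicates was 1.43-fold against 2.57-fold at 64 cells. U0126 embryos held 5.03, 5.97 and 13.98 normalized counts, a mean of 8.32 ± 4.92 (SD, n = 3). Each U0126 library lay above the 3-read floor of 2.98 to 3.23, so a low signal was counted in all 3, and the highest of them lay 61.4-fold under the lowest DMSO library. What remained was 0.823% of the DMSO mean, or 0.924% without DMSO replicate 3, and 0.586%, 0.632% and 1.14% of the same-number library in replicates 1, 2 and 3.

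The fall at 112 cells was a log2 fold change of -6.87 (SE 0.39, 95% interval -7.78 to -5.95, limma adjusted p = 0.00107). This is a 117-fold difference on the log2(value + 1) scale, with an interval of 62.03 to 219.5. It was the second most negative of 11315 genes, of which 0.53% were called lower. Brachyury kept its call under all 17 alternatives, with adjusted p from 6.91e-61 in DESeq2 to 0.0115 in limma without DMSO replicate 2. Without DMSO replicate 3 the log2 fold change was -6.72 (limma adjusted p = 0.00282). The exact two-sided permutation p was again 0.1, the smallest possible. The single gene called with a larger fall was KH.C10.338, at -7.19 (SE 0.51, limma adjusted p = 0.00234), whose U0126 libraries held 6, 1 and 2 reads.

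**Figure D2:**
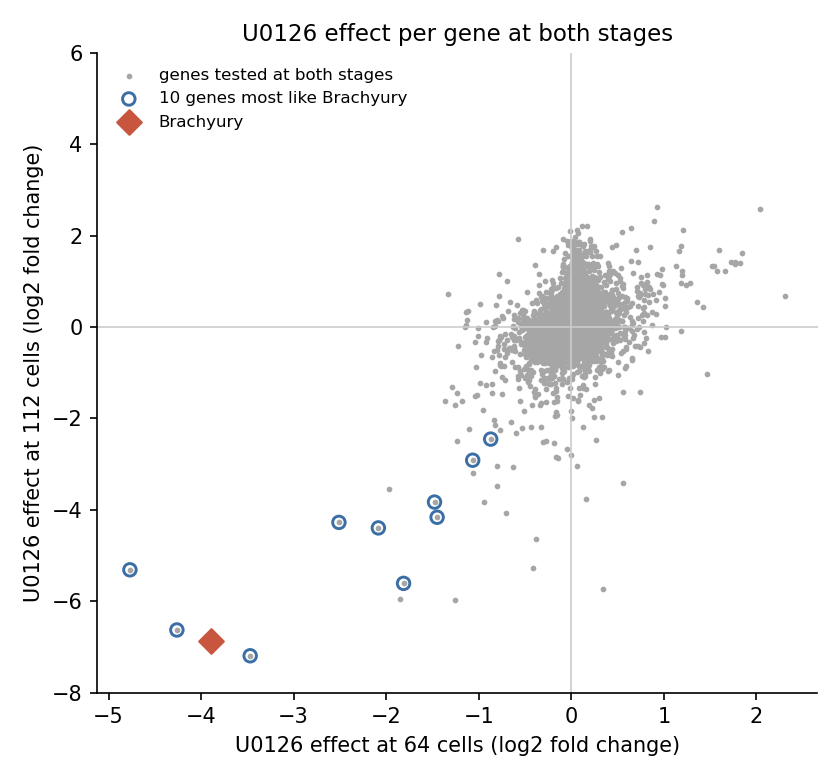
Log2 fold change of U0126 over DMSO at 64 cells (horizontal axis) and 112 cells (vertical axis) for every gene tested at both stages, with Brachyury as a red diamond and the 10 genes most like it as blue circles. Brachyury lies at -3.89 and -6.87, far from the bulk of genes, whose medians were 0.01 and 0.00.

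The regularized log2 values that the authors deposited beside the counts show the same order of groups with a much smaller contrast. At 64 cells they were 5.89 ± 0.18 in DMSO and 5.45 ± 0.04 in U0126 embryos (SD, n = 3 each), a difference of -0.43. At 112 cells they were 9.17 ± 0.19 and 6.04 ± 0.10, a difference of -3.12 (limma adjusted p = 0.000171). This transform draws values that rest on few reads towards the gene's mean, and at 64 cells the difference of -0.43 stands beside -3.89 from the counts. The 2 tables were transformed separately, so these values cannot be set against each other between stages.

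The change between the stages was measured after both tables had been rescaled together, which gives a joint-scale normalized count. In DMSO embryos Brachyury rose from 102 ± 44.6 at 64 cells to 1054 ± 191 at 112 cells (SD, n = 3 each), or from 7.71 ± 3.31 to 82.3 ± 20.7 CPM (counts scaled to a common library total). The rise was 17.9-fold in replicate number 1, 7.96-fold in number 2 and 9.77-fold in number 3. The log2 change was 3.47 (SE 0.67, 95% interval 1.98 to 4.95, limma adjusted p = 0.00809), in a fit that called 5.38% of 11650 genes higher at 112 cells, and 150 genes rose more. Without DMSO replicate 1 at 64 cells, the low library, the log2 change was 3.02 (limma adjusted p = 0.0384), and without DMSO replicate 3 at 112 cells it was 3.33 (limma adjusted p = 0.0264). The level at 64 cells was thus 9.65% of that reached at 112 cells. Each stage has its own table, so a batch that goes with the table and the stage cannot be told apart.

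No change between the stages was called in U0126 embryos. Their joint-scale level was 7.90 ± 7.37 at 64 cells and 8.73 ± 5.15 at 112 cells (SD, n = 3 each). The log2 change was 0.46 (SE 0.67, limma adjusted p = 0.886), with a 95% interval from -1.02 to 1.95, so changes in either direction within these bounds are not excluded, in a fit that called 6.79% of genes. Its sign rests on replicate 2 at 64 cells with its single read: without that library the change was -0.37. Without DMSO replicate 3 at 112 cells, which enters this fit through the shared spread, the change stayed at 0.46 (SE 0.70, limma adjusted p = 0.796). The order of the groups was therefore DMSO at 112 cells, DMSO at 64 cells, and then the U0126 groups, which did not differ beyond their spread (exact two-sided permutation p = 0.9).

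The U0126 effect was larger in size at 112 than at 64 cells, but the test of that difference did not pass. The difference of the log2 fold changes was -3.00 (SE 0.95, 95% interval -5.10 to -0.91, unadjusted p = 0.0091, limma adjusted p = 0.999), among 11650 genes of which 0.155% were called. Without DMSO replicate 3 at 112 cells it was -2.86 (limma adjusted p = 1.00). The block left it uncalled (limma adjusted p = 0.318), while DESeq2 called it (log2 difference -3.25, DESeq2 adjusted p = 0.0123). Same-number log2 ratios were -2.70, -6.00 and -2.98 at 64 cells and -7.15, -7.08 and -6.36 at 112 cells. They do not overlap, but replicate 2 at 64 cells lies close to replicate 3 at 112 cells. The exact two-sided permutation p was 0.1, the smallest possible when the ratios are shuffled between stages without regard to replicate number. By construction this difference is the stage change in U0126 embryos, 0.46, less that in DMSO embryos, 3.47.

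**Figure D3:**
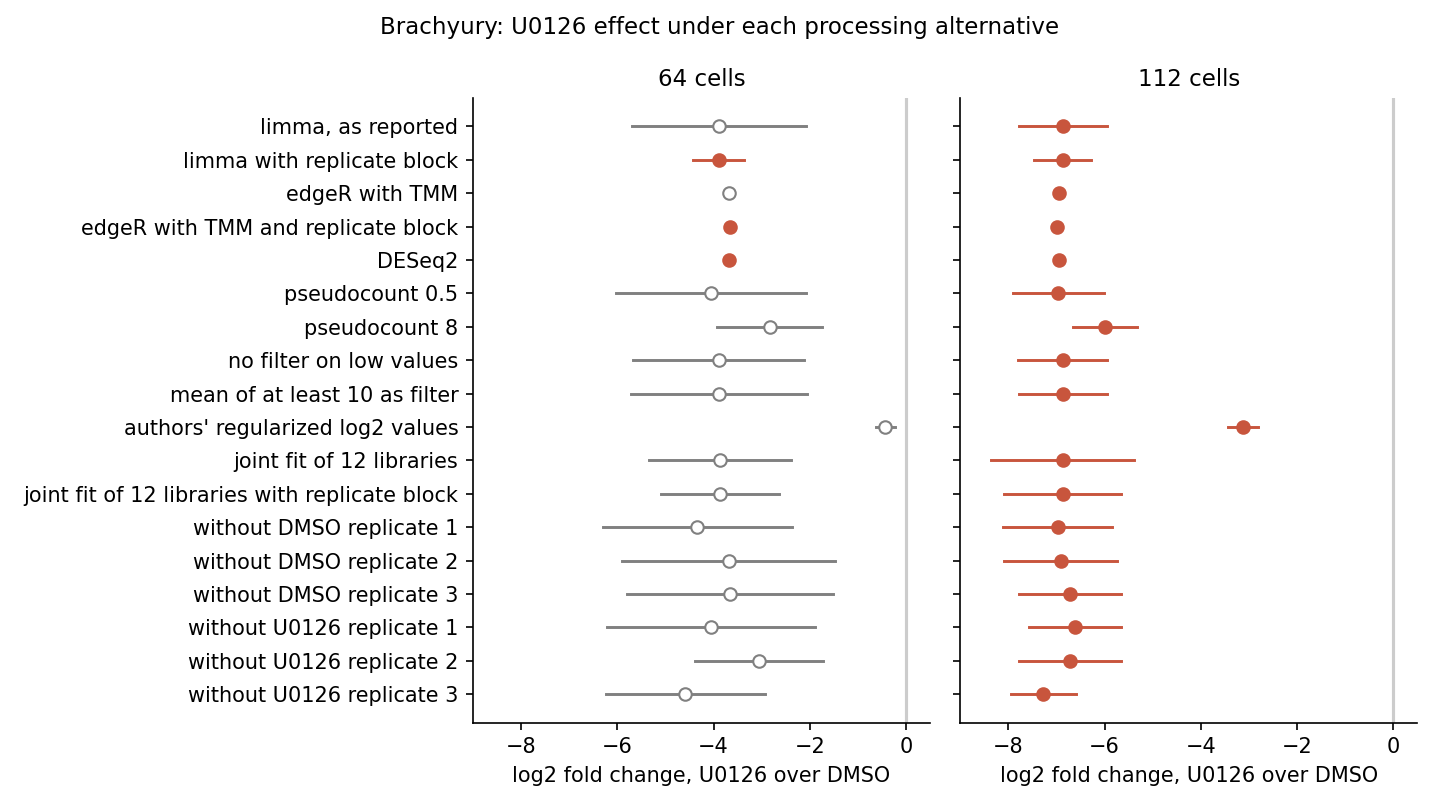
Brachyury log2 fold change of U0126 over DMSO under each processing alternative at 64 cells (left) and 112 cells (right), with 95% intervals where limma gives them; filled red points passed an adjusted p under 0.05 and open grey points did not. At 64 cells 3 of 17 alternatives passed and at 112 cells all 17 did, and the authors' regularized values gave the smallest sizes, -0.43 and -3.12.

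Brachyury was among the most completely depleted of the 60 genes called lower with U0126 at 112 cells, a list that was chosen on that contrast and so only describes it. Without DMSO replicate 3, 62 genes were called lower. On the joint scale 0.828% of its DMSO level remained, the second lowest share of the 60, whose median was 7.14%. Its timing in DMSO embryos was near the middle of the list: its 64-cell level as a share of its 112-cell level, 9.65%, ranked 27th from the lowest, against a median of 12.1%. Of the 39 listed genes that could be tested at 64 cells Brachyury had the third most negative estimate there, against a median of -0.77.

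Genes with a profile most like that of Brachyury were ranked by Pearson's r of log2 joint-scale levels over the 12 libraries, among 11649 genes. These libraries form 4 groups, and r mainly reflects the differences between groups, so it is a measure of likeness and carries no test. The closest were KH.S683.3 (r = 0.95), KH.C11.577 (0.95), KH.C11.328 (0.94), KH.C8.738 (0.94) and KH.L9.31 (0.94). They were followed by KH.S544.3 (0.94), KH.C12.487 (0.93), KH.C12.228 (0.93), KH.L128.12 (0.92) and KH.C10.338 (0.92), and the gene ranked 11th was at 0.92. None of these identifiers is paired with a gene name in the sources used here. All 10 were called lower at 112 cells, against 0.53% of all genes tested, but the ranking used those libraries and so favoured this. At 64 cells limma called 2 of the 10 lower, and all 10 with the replicate block. Of all 10792 genes tested there, 0.0185% and 1.35% were called in either direction, and 2 and 71 genes were called lower. The ranking used the 64-cell libraries too, so these calls were also favoured by it. The list depends on how likeness is measured: 1 of the 10 stayed in a ranking by Spearman's rho, 5 stayed on the 112-cell libraries alone and 8 stayed without DMSO replicate 3 at 112 cells.

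The 10 genes differed in how much of their DMSO level was left with U0126 at 64 cells. KH.C11.577, the second in the ranking, had 158, 420 and 325 reads in DMSO replicates 1, 2 and 3 at 64 cells against 10, 19 and 9 in U0126 embryos. At 112 cells it had 1815, 1369 and 1532 reads in DMSO and 14, 13 and 14 in U0126 embryos. That leaves 4.79% of its DMSO level at 64 cells and 0.945% at 112 cells, beside 7.77% and 0.828% for Brachyury on the same scale. Its log2 change between the stages in U0126 embryos was 0.26 (limma adjusted p = 0.881), beside 0.46 for Brachyury. At 64 cells its log2 fold change of -4.26 (SE 0.45) missed the threshold in limma (adjusted p = 0.053) and passed it with the block (limma adjusted p = 6.75e-119), in the fit where all genes of a level share 1 spread.

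By group means KH.L128.12 had more of its 112-cell level at 64 cells than Brachyury, a comparison that was not tested. Its log2 change between the stages in DMSO embryos was 1.12 and was not called (limma adjusted p = 0.176). Its DMSO libraries held 99, 283 and 284 reads at 64 cells and 469, 350 and 361 at 112 cells, so that 50.9% of the 112-cell level was present at 64 cells, where Brachyury had 9.65%. KH.C10.338 had a smaller share at 64 cells, 5.97%, a difference from Brachyury that was also not tested. Its DMSO libraries at 112 cells held 740, 649 and 335 reads, the lowest in the library that stood apart. With U0126 at 64 cells KH.C10.338 kept 7.22% of its DMSO level, beside 7.77% for Brachyury, but that rests on 1, 5 and 1 reads. KH.C8.738 kept the most of the 10, with 53.5% of its DMSO level at 64 cells and 18.8% at 112 cells, and KH.C11.328 kept 48.0% and 13.2%. Residual shares of these 10 genes ran from 0.577% to 18.8% at 112 cells.

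**Figure D4:**
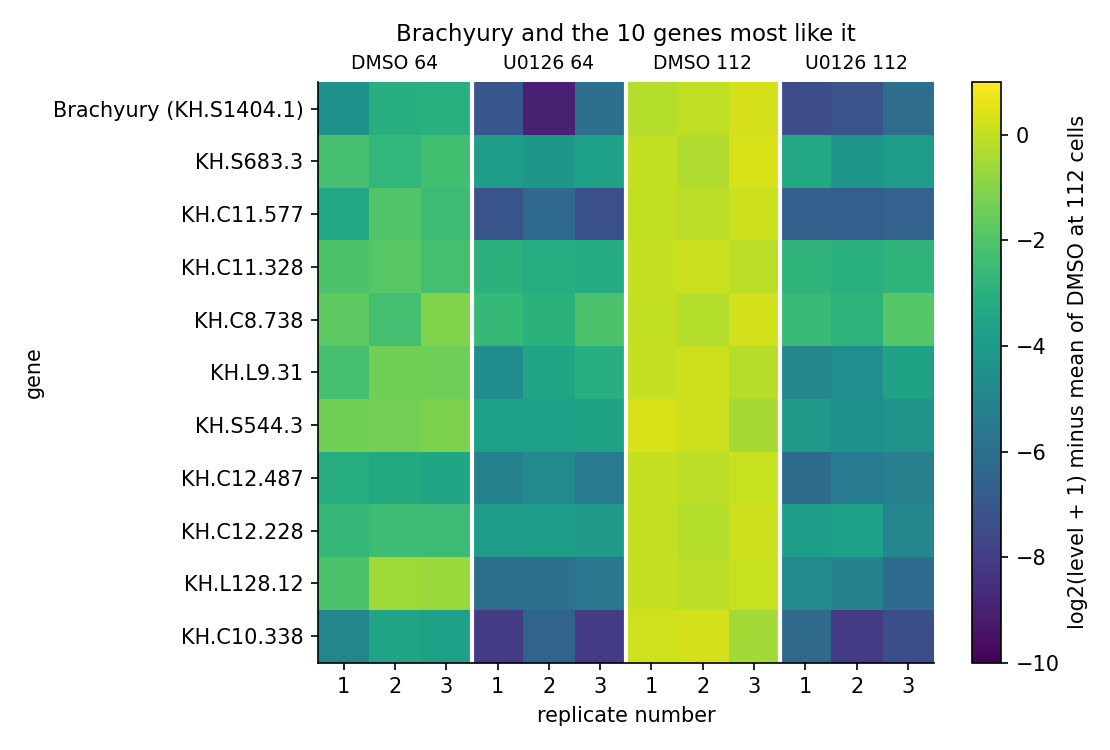
Level of Brachyury and the 10 genes most like it in each library, as log2(joint-scale count + 1) minus the gene's mean in DMSO embryos at 112 cells (colour), with replicate numbers on the horizontal axis within each group. Brachyury, KH.C11.577 and KH.C10.338 have the darkest U0126 columns, and KH.C8.738 and KH.C11.328 the lightest.

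The low Brachyury level of DMSO replicate 1 at 64 cells was shared by part of these genes. Replicate 1 was the lowest of the 3 DMSO libraries at that stage in 6 of the 10, compared with 31.4% of all 11650 genes. Among the 6 were KH.C11.577, KH.L128.12 and KH.C10.338 (18, 48 and 46 reads). The ranking by r used these libraries too, and so favoured genes that were low in the same replicate. Of the other 59 genes called lower at 112 cells, 23 were lowest in that library (39.0%). In the other direction, replicate 3 had the highest Brachyury level in all 4 groups, as did 10.3% of all genes and 1 of the 10. The part of embryo age or of a replicate batch in either pattern was not tested, as the labels give neither.

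Brachyury has 2 other gene models on its scaffold in the KH2012 set, and neither had a called U0126 effect. KH.S1404.3 had 0 reads in all 12 libraries, which allows up to 3 reads in each. KH.S1404.2 held 80, 1 and 36 reads in DMSO and 72, 0 and 23 in U0126 embryos at 64 cells, in replicates 1, 2 and 3. At 112 cells it held 104, 2 and 31 reads in DMSO and 72, 0 and 8 in U0126 embryos. It was thus high in replicate number 1 and at or near 0 in number 2 in every group, and its U0126 effect was not called at 64 cells (log2 fold change -0.47, 95% interval -4.64 to 3.69, limma adjusted p = 1.00) or at 112 cells (-1.21, 95% interval -5.38 to 2.96, limma adjusted p = 0.788). In same-number pairs of normalized counts it was lower with U0126 in 3 of 3 at 112 cells. At 64 cells it was lower in replicates 2 and 3 and slightly higher in replicate 1 (75.5 against 74.8 in DMSO). The pair of replicate 2 at 64 cells was 0 reads against 1. With the replicate block the interval was -1.17 to 0.23 at 64 cells (limma adjusted p = 0.736) and -2.34 to -0.08 at 112 cells (limma unadjusted p = 0.04, adjusted p = 0.418). Brachyury was at 136 and 974 reads in the DMSO libraries of number 2, where KH.S1404.2 had 1 and 2. The strand setting of the counting is not given in any source used, so reads that overlapping models share cannot be told apart.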

How the data were processed

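RNA was sequenced from 12 whole-embryo libraries made with a stranded mRNA kit, per the labels' protocols. Per the file headers, the authors deposited 1 table a stage, with the counts of each gene scaled by library size (normalized counts, treated as a non-negative signal) and regularized log2 values beside them. TopHat2 2.9.8b and DESeq 1.8.1 are named in the submitters' processing notes. The read counter, strand setting, genome build and gene coordinates are not given in any source used. All deposited normalized counts (100%) were whole multiples of their library's smallest value within 0.01, so reads were recovered by division. Totals were 10623872 to 15956670 reads, and 3 reads, the limit that a count of 0 allows, equal normalized counts of 2.42 to 3.29.

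Each U0126 effect was fitted on the 6 libraries of its stage with limma 3.58.1 (R 4.3.3, variance trend) on log2(normalized count + 1), for genes with at least 10 in at least 3 libraries. Stage changes and the difference of effects used all 12 libraries, fitted as 4 group means, after joint median-of-ratios rescaling of the recovered reads. p-values were adjusted over all genes tested. Alternatives were edgeR 4.0.16 and DESeq2 1.42.0 on the recovered reads, other pseudocounts and filters, the regularized values, a replicate block and leaving out each library. The limma, edgeR and DESeq2 fits without a block were also run on simulated counts. Those counts had no replicate effect, so the runs do not bear on the blocked fits.

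Replicate numbers come from the labels, which do not say what a number shares. Deviations from the group means correlated with r of 0.45 to 0.83 for the 6 pairs of like number at 1 stage. Across stages r was 0.38 to 0.79 for like numbers, and it was -0.53 to -0.03 for different numbers. Deviations from a group mean cancel within the group, so negative r for different numbers follows from positive r for like numbers and is not separate evidence. Libraries of like number were therefore matched in the same-number comparisons and in the fits with the replicate block. The main limma fits, DESeq2 and edgeR without the block left the replicate number out, so their p-values are unpaired. Where replicates are not from separate clutches, p-values measure only the spread between these libraries.

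Named genes were Brachyury, the 10 highest in r to it, genes called with a larger fall at 112 cells, and the models of its scaffold. Lists of FGF pathway and T-box genes were drawn up by name, but 0 of 15284 identifiers could be matched to names, so they give no values. Brachyury, its gene lists and these tests were chosen with earlier results of these data known.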

Additional observations from a re-analysis of the deposited data

How the results depend on the processing

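Brachyury's fall at 112 cells and its rise between the stages in DMSO embryos kept direction and call under all 17 and all 20 alternatives. Its lower level with U0126 at 64 cells, not called in the limma fit reported, was called under 3 of 17: limma with the replicate block (-3.89), edgeR with the block (-3.66) and DESeq2 (-3.69). DESeq2 alone called the difference between the stages (-3.25). With each library left out in turn, the log2 fold change ran from -4.58 to -3.05 at 64 cells and -7.27 to -6.61 at 112 cells, the DMSO stage change from 3.02 to 3.70, the U0126 stage change from -0.37 to 1.15 and the difference from -3.83 to -2.32. The remaining level ran from 3.91% to 11.1% at 64 cells, lowest without U0126 replicate 3, and from 0.544% to 0.986% at 112 cells. The 10 most like genes shared 6 to 10 members with each ranking that left out a library, 5 with one on the 112-cell libraries alone and 1 with one by Spearman's rho. The block changed no other Brachyury call.

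Counts of genes called moved more. At 64 cells limma called 2, with 0 to 2 without each library, 146 with the block, 132 in edgeR with the block, 17 in DESeq2 and 5 in the joint fit. At 112 cells it was 83, with 16 to 119 without each library, 49 with the block, 219 in DESeq2 and 253 in the joint blocked fit. For the stage change it was 884 in DMSO and 791 in U0126 embryos (2035 and 1764 with the block). Without each library it was 567 to 856 in DMSO embryos, lowest without DMSO replicate 3 at 64 cells. In U0126 embryos it was 502 to 1188, with 502 without U0126 replicate 1 or 3 at 112 cells and 1188 without DMSO replicate 3 at 112 cells. For the difference it was 18, with 31 under the block, 50 in DESeq2 and 0 to 9 without each library. Brachyury in U0126 embryos rested on 1 to 16 reads a library, which limits what remains to be measured.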
